A study of Mus musculus with 16 samples.

Results

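The 10 genes described here, Kdr, Flt1, Tek, Tie1, Cdh5, Pecam1, Esam, Emcn, Eng and Sox18, are widely used markers of the endothelium, the cell layer that lines blood vessels. They were chosen by name, as markers of this cell type, with earlier results of these data known. Each was read from the array entry that carries its symbol and no other, with the entry of the highest mean to be taken where a gene had several. All 10 had exactly 1 such entry, and they are 10 of the 22180 genes tested. In the RefSeq annotation of mouse build GRCm38.p6 they lie on 7 chromosomes: Kdr at chr5:75932827-75979072, Flt1 at chr5:147561604-147726438, Tek at chr4:94739086-94874976, Tie1 at chr4:118471191-118489849, Cdh5 at chr8:104101613-104144504, Pecam1 at chr11:106654213-106715281, Esam at chr9:37528089-37538319, Emcn at chr3:137341062-137431069, Eng at chr2:32646595-32682669 and Sox18 at chr2:181669837-181671640.

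Every sample derived from the mouse embryonic stem cell line iGPA-Myo7a:mVenus. It carries transgenes for Gfi1, Pou4f3 and Atoh1, transcription factors of hair cells, that doxycycline (Dox) switches on, and the fluorescent protein mVenus under Myo7a control. All were grown as embryoid bodies (EBs), floating aggregates in which several lineages form side by side. Cells sorted by flow cytometry for mVenus, called induced hair cell-like cells (iHCs), formed 4 groups: Dox+RA iHCs of day 12, Dox iHCs of day 12, Dox+RA iHCs of day 8 and Dox iHCs of day 8, where RA is retinoic acid, with 3 arrays each. Dox, alone or with RA, was given from day 4 of culture. The others were control EBs of day 12 and of day 8, with 2 arrays each, of the same line, given neither Dox nor RA and not sorted. All groups therefore carry the inducible transgenes and come from 1 line, and between iHCs and EBs the treatment and the sort cannot be told apart. No group was enriched for endothelial cells, so a level is that of the RNA of a mixed or sorted population, in which fewer endothelial cells and less RNA per cell cannot be told apart.

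Endothelial cells respond to vascular endothelial growth factor (VEGF) through the receptor tyrosine kinase Kdr, while Flt1 binds the same ligand with high affinity and limits what reaches Kdr. Angiopoietins act through Tek, with Tie1 as its partner receptor, and the cells are held together by junction proteins such as Cdh5, Pecam1 and Esam. In embryoid bodies endothelial cells arise from Kdr-positive mesoderm, close in origin to the first blood cells.

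All levels are log2 RMA values, in which 1 unit is a 2-fold difference in signal, and single levels are compared only within a gene. Sums and means over a list are compared only between samples, over the same genes. Arrays of a group correlated at 0.982 to 0.995 over all genes. The iHC labels were checked on a list of 14 hair cell and induced genes, of which 14, 14, 14 and 13 were higher than in EBs in Dox+RA iHCs of day 12, Dox iHCs of day 12, Dox+RA iHCs of day 8 and Dox iHCs of day 8. Of all genes, 22.4%, 19.2%, 19.6% and 15.7% were higher in that order. The list includes the induced Gfi1, Pou4f3 and Atoh1, and Myo7a, whose control drives the sorted mVenus. Part of this outcome was therefore set by the design. Below, called means an adjusted p below 0.05 from limma, with the Benjamini-Hochberg adjustment made over the whole table.

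Endothelial gene levels were lower in iHCs than in control EBs of the same day in most comparisons. In Dox+RA iHCs of day 12, 9 of the 10 genes were called lower, where 22.4% of all genes were. In Dox iHCs of day 12 it was 8 of 10, where 21.7% of all genes were called lower. In Dox+RA iHCs of day 8 all 10 were called lower, against 22% of all genes, and in Dox iHCs of day 8 it was 9 of 10, against 18.9% of all genes. None of the 10 was called higher in any of these, where 22.4%, 19.2%, 19.6% and 15.7% of all genes were. The median log2 differences of the 10 genes were -1.39, -1.49, -1.69 and -1.61 in that order, beside medians over all genes of 0.07, 0.02, 0.05 and 0.02. The genes called and at least 2-fold lower numbered 6, 7, 10 and 8, where 9.81%, 8.75%, 9.04% and 6.58% of all genes were. In each of the 4 comparisons the iHC arrays lay below the EB arrays of the same day without overlap for all 10 genes, as they did for 28.5%, 28.7%, 28.1% and 27.2% of all genes. The control EBs of a day are shared by the Dox+RA and Dox comparisons of that day.

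**Figure D1:**
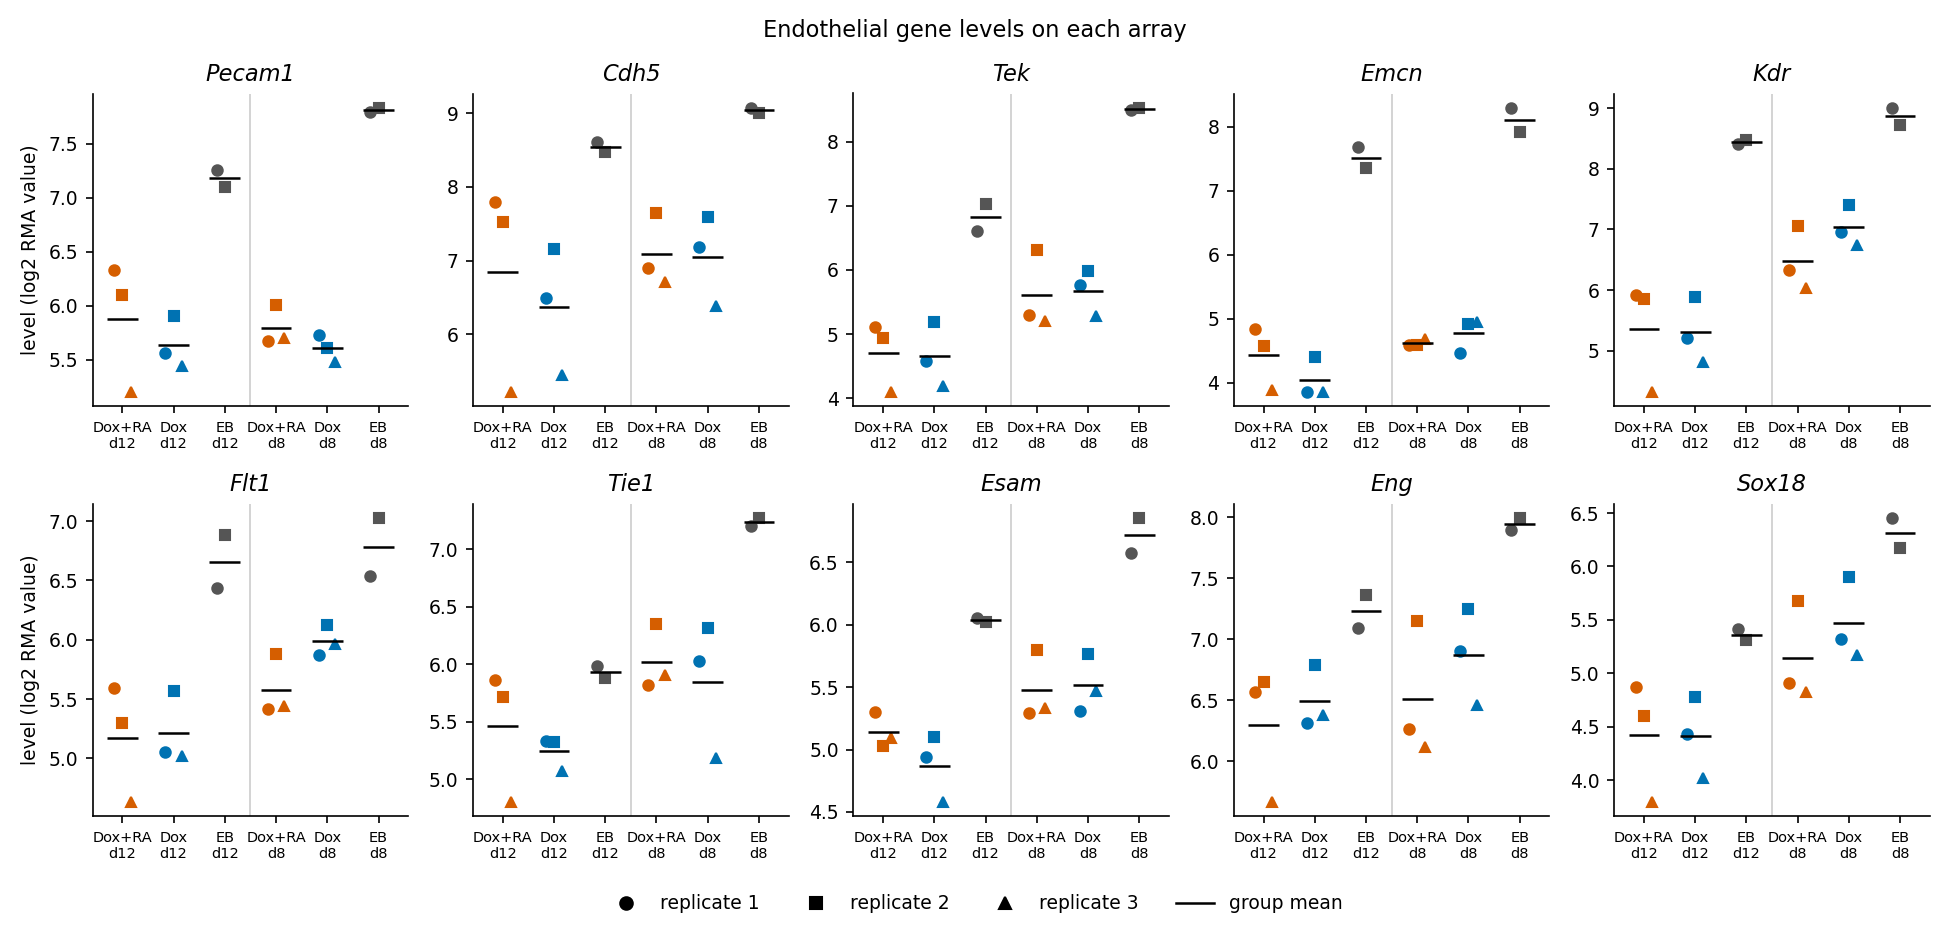
Level (log2 RMA value) of each of the 10 genes on each of the 16 arrays, by group, with day 12 left of day 8; symbols give the replicate number and bars the group mean. The EB arrays lie above the iHC arrays of their day in every panel, and the gap is widest for Emcn and, on day 12, Kdr.

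Kdr and Flt1 are the VEGF receptors of the set. Kdr levels on day 12 were 5.91, 5.85 and 4.32 in Dox+RA iHCs and 5.21, 5.89 and 4.82 in Dox iHCs, against 8.41 and 8.48 in control EBs. On day 8 the arrays gave Kdr levels of 6.33, 7.06 and 6.04 in Dox+RA iHCs and 6.96, 7.41 and 6.74 in Dox iHCs, against 9.01 and 8.72 in control EBs. Both EB groups were far above every iHC array, and the iHC arrays of day 12 lay below those of day 8. The log2 differences of Kdr were -3.09 and -3.14 on day 12 and -2.39 and -1.83 on day 8 for Dox+RA and Dox iHCs minus EBs (SE 0.42 each), with limma adjusted p between 2.12e-05 and 0.00306. This put Kdr 8.5-fold lower in Dox+RA iHCs and 8.8-fold lower in Dox iHCs than in EBs on day 12. At day 12, Flt1 was at 5.59, 5.30 and 4.63 in Dox+RA iHCs and 5.06, 5.57 and 5.02 in Dox iHCs, against 6.44 and 6.88 in control EBs. For Flt1 on day 8, levels of 5.42, 5.88 and 5.44 in Dox+RA iHCs and 5.87, 6.13 and 5.96 in Dox iHCs stood against 6.54 and 7.03 in control EBs. The Flt1 ranges were narrower but still separate, with the smallest gap between Dox iHCs and EBs on day 8. Differences for Flt1 were -1.48 and -1.44 on day 12 and -1.20 and -0.80 on day 8 for Dox+RA and Dox iHCs minus EBs (SE 0.26 each), with limma adjusted p of 0.000198, 0.00028, 0.00127 and 0.0245 in that order. The call of day 8 Dox iHCs was lost without their replicate 1 (log2 difference -0.74, adjusted p 0.0698), without their replicate 3 (-0.78, 0.0528) and without EB day 8 replicate 2 (-0.55, 0.255).

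Tek, the receptor of the angiopoietins, was called lower in all 4 comparisons, and Tie1, which forms complexes with it, in the 2 of day 8. On day 12 the arrays gave Tek levels of 5.11, 4.93 and 4.10 in Dox+RA iHCs and 4.58, 5.19 and 4.19 in Dox iHCs, against 6.61 and 7.03 in control EBs. Tek levels on day 8 were 5.31, 6.31 and 5.20 in Dox+RA iHCs and 5.77, 5.99 and 5.28 in Dox iHCs, against 8.49 and 8.53 in control EBs. Every iHC array was below every EB array, and the EBs themselves stood lower on day 12 than on day 8. Tek differences were -2.11 and -2.17 on day 12 and -2.90 and -2.83 on day 8 for Dox+RA and Dox iHCs minus EBs (SE 0.36 each), with limma adjusted p of 0.000186 or less. For Tie1 on day 12, levels of 5.86, 5.72 and 4.80 in Dox+RA iHCs and 5.34, 5.32 and 5.08 in Dox iHCs stood against 5.99 and 5.88 in control EBs. At day 8, Tie1 was at 5.82, 6.35 and 5.90 in Dox+RA iHCs and 6.03, 6.31 and 5.18 in Dox iHCs, against 7.20 and 7.27 in control EBs. On day 8 the Tie1 arrays of iHCs and EBs were separated by a wide gap, whereas on day 12 the highest iHC array, 5.86, nearly met the lowest EB array, 5.88. The log2 differences of Tie1 were -0.47 and -0.69 on day 12 and -1.21 and -1.39 on day 8 for Dox+RA and Dox iHCs minus EBs (SE 0.31 each). Tie1 was called lower on day 8, with limma adjusted p of 0.00483 in Dox+RA iHCs and 0.00221 in Dox iHCs. It was not called on day 12, where the values were 0.237 and 0.0922 and the 95% intervals ran from -1.13 to 0.19 and from -1.35 to -0.03.

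Cdh5, the VE-cadherin of adherens junctions, Pecam1, a homophilic adhesion receptor, and Esam, a tight junction adhesion molecule, join endothelial cells to each other. At day 12, Cdh5 was at 7.80, 7.52 and 5.22 in Dox+RA iHCs and 6.49, 7.16 and 5.45 in Dox iHCs, against 8.61 and 8.47 in control EBs. For Cdh5 on day 8, levels of 6.91, 7.64 and 6.71 in Dox+RA iHCs and 7.19, 7.59 and 6.39 in Dox iHCs stood against 9.08 and 9.01 in control EBs. The EB arrays agreed closely while the iHC arrays were widely spread, most of all in Dox+RA iHCs of day 12, where the lowest and highest arrays were 5.97-fold apart. Cdh5 differences were -1.69 and -2.17 on day 12 and -1.96 and -1.99 on day 8 for Dox+RA and Dox iHCs minus EBs (SE 0.62 each), with limma adjusted p of 0.0385, 0.0109, 0.0197 and 0.0216 in that order. These calls depended on single arrays: without Dox+RA day 12 replicate 3 the first difference was -0.88 (adjusted p 0.145), and each of the 4 calls was lost without either EB array of its day (adjusted p 0.0519 to 0.142). The call of Dox+RA iHCs of day 8 was also lost without their replicate 1 (-1.87, 0.0514) or 3 (-1.77, 0.06), and that of Dox iHCs of day 8 without replicate 3 (-1.65, 0.0776).

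The calls of Pecam1 and Esam were steadier and held without any single array. Pecam1 levels still spanned 1.13 log2 units over the arrays of Dox+RA iHCs of day 12. Pecam1 levels on day 12 were 6.33, 6.10 and 5.20 in Dox+RA iHCs and 5.56, 5.90 and 5.44 in Dox iHCs, against 7.26 and 7.10 in control EBs. On day 8 the arrays gave Pecam1 levels of 5.67, 6.01 and 5.70 in Dox+RA iHCs and 5.73, 5.61 and 5.47 in Dox iHCs, against 7.79 and 7.83 in control EBs. The iHC arrays lay below the EB arrays of the same day with no overlap, and the Pecam1 levels of the iHC groups overlapped across days. Pecam1 differences were -1.30 and -1.54 on day 12 and -2.02 and -2.21 on day 8 for Dox+RA and Dox iHCs minus EBs (SE 0.24 each), all called by limma (adjusted p 0.000383 or less). For Esam on day 12, levels of 5.30, 5.03 and 5.10 in Dox+RA iHCs and 4.94, 5.10 and 4.58 in Dox iHCs stood against 6.06 and 6.03 in control EBs. At day 8, Esam was at 5.29, 5.80 and 5.33 in Dox+RA iHCs and 5.31, 5.76 and 5.47 in Dox iHCs, against 6.58 and 6.86 in control EBs. Esam, too, was separate in every comparison, with a smaller difference than Pecam1 on both days. Its log2 differences were -0.90 and -1.17 on day 12 and -1.24 and -1.20 on day 8 for Dox+RA and Dox iHCs minus EBs (SE 0.18 each), with limma adjusted p from 4.49e-05 to 0.000771.

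Emcn, an endothelial surface sialomucin that is known for venous and capillary endothelium, had the largest difference of the 10 genes in 3 of the 4 comparisons, Kdr being level with it in Dox+RA iHCs of day 12. At day 12, Emcn was at 4.83, 4.57 and 3.88 in Dox+RA iHCs and 3.86, 4.41 and 3.86 in Dox iHCs, against 7.67 and 7.35 in control EBs. For Emcn on day 8, levels of 4.59, 4.59 and 4.69 in Dox+RA iHCs and 4.47, 4.92 and 4.95 in Dox iHCs stood against 8.29 and 7.91 in control EBs. The highest of the 12 iHC arrays was 4.95 and the lowest of the 4 EB arrays 7.35, so no array came near the other kind of sample. The log2 differences were -3.08 and -3.47 on day 12 and -3.48 and -3.32 on day 8 for Dox+RA and Dox iHCs minus EBs (SE 0.25 each), which is 8.48-, 11.1- and 11.2-fold lower in the first 3, with limma adjusted p of 7.8e-08 or less. RMA compresses differences at low signal, and the table holds no detection calls, so these folds can be too small.

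Eng, the co-receptor for bone morphogenetic proteins 9 and 10 on endothelial cells, and Sox18, a transcription factor of endothelial and lymphatic development, were among the smaller differences. On day 12 the arrays gave Eng levels of 6.57, 6.65 and 5.67 in Dox+RA iHCs and 6.31, 6.79 and 6.38 in Dox iHCs, against 7.10 and 7.36 in control EBs. Eng levels on day 8 were 6.27, 7.15 and 6.12 in Dox+RA iHCs and 6.91, 7.25 and 6.46 in Dox iHCs, against 7.90 and 7.99 in control EBs. The Eng arrays of iHCs and EBs did not overlap within a day, although 1 Dox+RA and 1 Dox array of day 8, at 7.15 and 7.25, were above the lower EB array of day 12. Eng differences were -0.93 and -0.74 on day 12 and -1.43 and -1.07 on day 8 for Dox+RA and Dox iHCs minus EBs (SE 0.32 each), with limma adjusted p of 0.0274, 0.0828, 0.00189 and 0.0162 in that order, so Eng was not called in Dox iHCs of day 12. The call of day 12 Dox+RA iHCs was lost without their replicate 3 (-0.62, 0.114) or either EB array (-1.06, 0.0604, and -0.80, 0.165). That of day 8 Dox iHCs was lost without replicate 3 (-0.87, 0.0641) or either EB array (-1.12, 0.0607, and -1.02, 0.0975).

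For Sox18 on day 12, levels of 4.87, 4.60 and 3.80 in Dox+RA iHCs and 4.43, 4.78 and 4.02 in Dox iHCs stood against 5.41 and 5.31 in control EBs. At day 8, Sox18 was at 4.91, 5.68 and 4.83 in Dox+RA iHCs and 5.32, 5.90 and 5.18 in Dox iHCs, against 6.45 and 6.17 in control EBs. The 4 EB arrays of Sox18 fell into 2 levels by day, and each iHC group lay below the EBs of its own day without overlap. The log2 differences of Sox18 were -0.94 and -0.95 on day 12 and -1.17 and -0.85 on day 8 for Dox+RA and Dox iHCs minus EBs (SE 0.32 each), with limma adjusted p of 0.0264, 0.0264, 0.00765 and 0.0535 in that order, so the last was not called. Without Dox day 8 replicate 2, which had the highest Sox18 level of the iHC arrays, that difference was -1.06 (adjusted p 0.0254). Both day 12 calls were lost without either EB array (adjusted p 0.0867 to 0.123), that of Dox+RA iHCs without replicate 3 (-0.62, 0.11) and that of Dox iHCs without replicate 1 (-0.96, 0.0502) or 3 (-0.76, 0.0916). The call of Dox+RA iHCs of day 8 was lost without EB day 8 replicate 1 (-1.03, 0.0681).

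**Figure D2:**
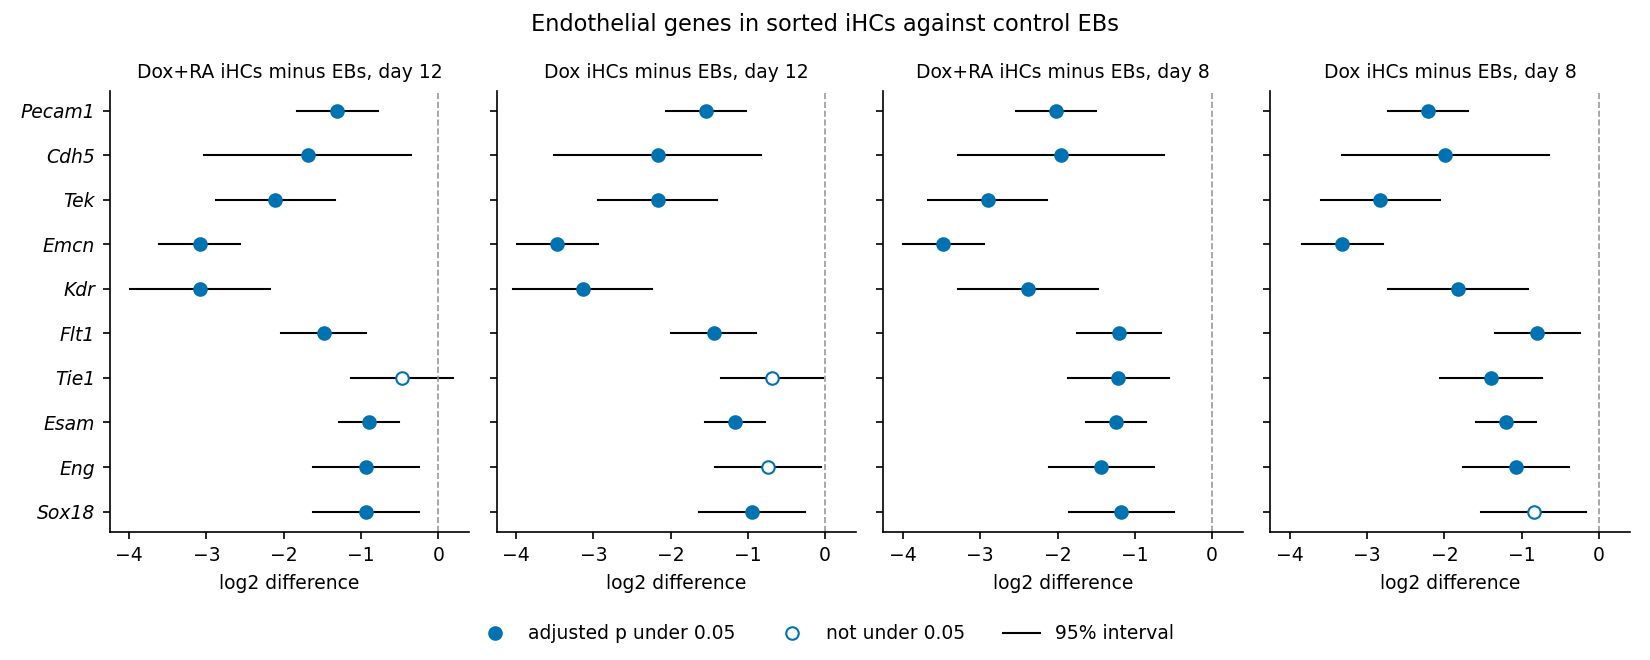
Log2 difference of each gene between iHCs and control EBs of the same day (x axis) with its 95% interval, in 4 comparisons; filled circles passed limma's adjusted p of 0.05. All differences lie below 0, and the open circles are Tie1 in both day 12 comparisons, Eng in Dox iHCs of day 12 and Sox18 in Dox iHCs of day 8.

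Ranked by group mean, control EBs of day 8 stood highest for all 10 genes. Control EBs of day 12 came next for 8 of them and stood in the third place for Tie1 and Sox18. Taking both days together, all 12 iHC arrays were below all 4 EB arrays for Kdr, Flt1, Tek, Cdh5, Pecam1, Esam and Emcn. For the other genes this held for 10 iHC arrays (Eng), 9 (Sox18) and 8 (Tie1). The shares of all genes with such a ranking or with this separation over both days were not computed. Within a day, 27.2% to 28.7% of all genes lay lower in an iHC group than in EBs without overlap. Among the 4 iHC groups, neighbours in the ranking overlapped, except at the step between the Dox+RA groups of day 8 and day 12 for Kdr and Tek.

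The sequence upstream of the gene is shown for Emcn, Tie1 and Eng. Of the members with a RefSeq promoter entry, only these had a window wholly or almost wholly before the gene. Against EBs, Tie1 was not called in both day 12 comparisons and Eng in 1 of them. The sequences are the RefSeq bases of the GRCm38.p6 build just before the gene, in the order Emcn, Tie1 and Eng. They lie at chr3:137340828-137341061 (plus strand), chr4:118489850-118490099 (minus strand) and chr2:32646345-32646594 (plus strand). They are written 5′ to 3′ on the gene's strand, with 234 bases for Emcn and 250 for the others. Capitals mark each GGAA and its reverse complement TTCC, the core that ETS factors such as Fli1 and Erg bind.
Emcn promoter: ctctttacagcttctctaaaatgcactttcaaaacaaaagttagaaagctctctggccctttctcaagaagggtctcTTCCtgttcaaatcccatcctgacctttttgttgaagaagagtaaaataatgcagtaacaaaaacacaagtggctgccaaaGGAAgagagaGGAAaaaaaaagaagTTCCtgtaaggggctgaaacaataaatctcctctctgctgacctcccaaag
Tie1 promoter: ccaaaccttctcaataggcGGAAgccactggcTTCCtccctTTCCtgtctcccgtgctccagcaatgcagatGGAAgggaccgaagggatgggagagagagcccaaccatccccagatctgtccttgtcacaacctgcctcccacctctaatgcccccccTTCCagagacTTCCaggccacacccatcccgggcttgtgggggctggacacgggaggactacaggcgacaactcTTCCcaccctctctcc
Eng promoter: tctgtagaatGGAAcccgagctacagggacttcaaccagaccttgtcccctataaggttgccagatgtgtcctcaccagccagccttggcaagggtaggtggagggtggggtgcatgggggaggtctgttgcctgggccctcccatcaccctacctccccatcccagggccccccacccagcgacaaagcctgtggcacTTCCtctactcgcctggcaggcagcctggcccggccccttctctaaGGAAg

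The RefSeq promoter table held a window for these genes and for Kdr, Flt1 and Tek, taken here as the 250 bases before the start site that the table uses. Set against the gene spans given above, the windows of Eng and Tie1 end just before the gene, that of Emcn reaches a few bases into it, most of that of Tek lies inside it, and those of Kdr and Flt1 lie inside it entirely. GGAA or TTCC occurred in all 6, with 4 matches for Emcn, 7 for Tie1, 3 for Eng, 4 each for Kdr and Flt1 and 2 for Tek. That is a common motif: 93.4% of 32851 mouse promoters of the same length held it, with a median of 3 matches, and 3.82% held 7 or more as Tie1 did. The longer AGGAAG (or CTTCCT), whose matches also contain the core, was in 4 of the 6 windows and in 29.5% of all promoters. On both strands, the SOX factor core ACAAT was found in 2 of the 6 windows, a match 27.7% of all promoters had. No window of the 6 held the GATA factor motif AGATAA on either strand, which 9.99% of all promoters did. A match describes the letters and is no evidence of binding.

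None of the 10 genes was called different between iHCs given RA with Dox and iHCs given Dox alone. Of the 10 genes, 0 were called by limma on day 12, where 0.924% of all genes were, and 0 of 10 on day 8, where 4.93% were. On both days 0 of the 10 had an unadjusted p under 0.05. The log2 differences ran from -0.20 (Eng) to 0.48 (Cdh5) on day 12 and from -0.56 (Kdr) to 0.19 (Pecam1) on day 8, and the arrays of the 2 treatments overlapped for every gene on both days. Single arrays moved the Cdh5 difference of day 12, which was 1.29 without Dox+RA replicate 3, 0.87 without Dox replicate 2, 0.02 without Dox replicate 3, and 0.14 and 0.00 without Dox+RA replicates 2 and 1, and it was called in none of these. Of all genes, 6.07% lay lower and 9.78% higher without overlap on day 12, and 12% and 11.9% on day 8. For Kdr, the mean level was 5.36 in Dox+RA iHCs and 5.31 in Dox iHCs on day 12, and 6.48 and 7.03 on day 8. Its 95% intervals ran from -0.76 to 0.86 and from -1.37 to 0.25. The intervals were tightest for Esam, -0.07 to 0.62 on day 12 and -0.39 to 0.30 on day 8, and widest for Cdh5, -0.72 to 1.67 and -1.16 to 1.22. A 2-fold difference, up or down, lay outside the intervals of Esam on both days. The intervals of Cdh5 took in a 2-fold higher level on both days. These intervals and the overlap take no account of the replicate number. With the number as a block in the limma fit, 0 of the 10 were called on either day. Between iHC arrays of the same number, Kdr, Flt1, Eng and Sox18 were lower with RA in every pair of day 8. No gene was higher in every pair there. On day 12 Emcn was higher in every pair and no gene lower. The share of all genes with such a pattern was not computed. The change of the RA difference between the days was not called for any of the 10 genes (adjusted p 0.908 or more, 0 genes with an unadjusted p under 0.05), where 0.00902% of all genes were called.

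Between day 8 and day 12 most of the endothelial genes had a lower mean at the later day, in iHCs and in untreated EBs. In Dox+RA iHCs 0 of the 10 genes were called, where 4.38% of all genes were, although Kdr, Tek and Sox18 had an unadjusted p under 0.05. In Dox iHCs 3 were called lower, Kdr, Esam and Sox18, where 4.66% of all genes were called lower. In control EBs 2 were called lower, Tek and Tie1, where 1.42% of all genes were. The fit shares the spread of a gene over the arrays of all groups, so the spread of the iHC arrays enters this EB test. With only the EB groups in the fit, 5 were called lower, where 213 of all genes were. Those added were Pecam1 (limma adjusted p 0.0464), Eng (0.0449) and Sox18 (0.0179). The medians of the 10 log2 differences, day 12 minus day 8, were -0.37 in Dox+RA iHCs, -0.71 in Dox iHCs and -0.65 in EBs, beside medians over all genes of 0.03, 0.01 and 0.00.

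In Dox iHCs, Kdr averaged 5.31 on day 12 and 7.03 on day 8, a log2 difference of -1.73 (SE 0.38, limma adjusted p 0.0128). Sox18 averaged 4.41 and 5.47, a difference of -1.06 (SE 0.29, adjusted p 0.0357), and Esam 4.87 and 5.52, a difference of -0.64 (SE 0.16, adjusted p 0.0259). The day 12 arrays lay below the day 8 arrays without overlap for these genes and for Tek, Flt1 and Emcn, 6 of the 10, as they did for 12.2% of all genes. Tek, Emcn and Flt1 had differences of -1.02, -0.74 and -0.77 with limma adjusted p of 0.0675, 0.0535 and 0.0525. Pecam1 was the one gene with no lower mean on day 12, at 5.64 on day 12 and 5.60 on day 8.

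The iHC arrays that carry the same replicate number moved together, and with the number as a block in the limma fit more genes passed. In Dox iHCs 7 of the 10 were then called lower, with Tek (adjusted p 0.0014), Flt1 (0.00705), Emcn (0.0376) and Tie1 (0.0416) added. In Dox+RA iHCs 3 were called lower, Tek (-0.89, adjusted p 0.00511), Kdr (-1.12, 0.00716) and Sox18 (-0.72, 0.0293). Without the block, single arrays decided the count in Dox iHCs: it was 0 without Dox day 12 replicate 1 or Dox day 8 replicate 2, 1 without Dox day 8 replicate 3 or Dox day 12 replicate 3, and 6 without Dox day 12 replicate 2. Kdr was still called in the fits with 1 call and was at -1.68 (adjusted p 0.0556) and -1.54 (0.0686) in those with 0.

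In Dox+RA iHCs the arrays of Tek and Kdr did not overlap between the days, 2 of the 10 genes, as for 9.96% of all genes. Mean Tek levels were 4.71 on day 12 and 5.61 on day 8 (difference -0.89, SE 0.32, limma adjusted p 0.148), and mean Kdr levels 5.36 and 6.48 (difference -1.12, SE 0.38, adjusted p 0.12). Among the control EBs, the 2 arrays of day 12 lay below the 2 of day 8 for 9 of the 10 genes, all but Flt1, as for 22.1% of all genes. Tek in EBs averaged 6.82 on day 12 and 8.51 on day 8, a difference of -1.69 (SE 0.40, limma adjusted p 0.026). Tie1 in EBs averaged 5.93 and 7.24, a difference of -1.30 (SE 0.34, adjusted p 0.0453). Both EB calls were lost without any single EB array, with adjusted p of 0.0671 to 0.274.

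Whether the time change differed between iHCs and EBs was tested directly, and no gene of the 10 was called for Dox+RA iHCs, where 2.62% of all genes were, or for Dox iHCs, where 2.84% were. An unadjusted p under 0.05 was reached by 0 of the 10 in Dox+RA iHCs and by 1, Kdr, in Dox iHCs. Kdr had the most negative of these differences, -0.70 in Dox+RA iHCs and -1.31 in Dox iHCs (SE 0.60, limma adjusted p 0.693 and 0.333). Without Dox+RA day 12 replicate 3 the Kdr value of Dox+RA iHCs was -0.18, and without Dox+RA day 8 replicate 2 it was -0.41. With the replicate number as a block, the Kdr value of Dox iHCs passed (-1.31, adjusted p 0.0429). Tek, Tie1 and Pecam1 had positive ones in both, from 0.67 to 0.80. Without Dox+RA day 12 replicate 3, the difference of Pecam1 for Dox+RA iHCs was 1.05 (adjusted p 0.0165) and passed. The comparisons share the EB arrays.

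**Figure D3:**
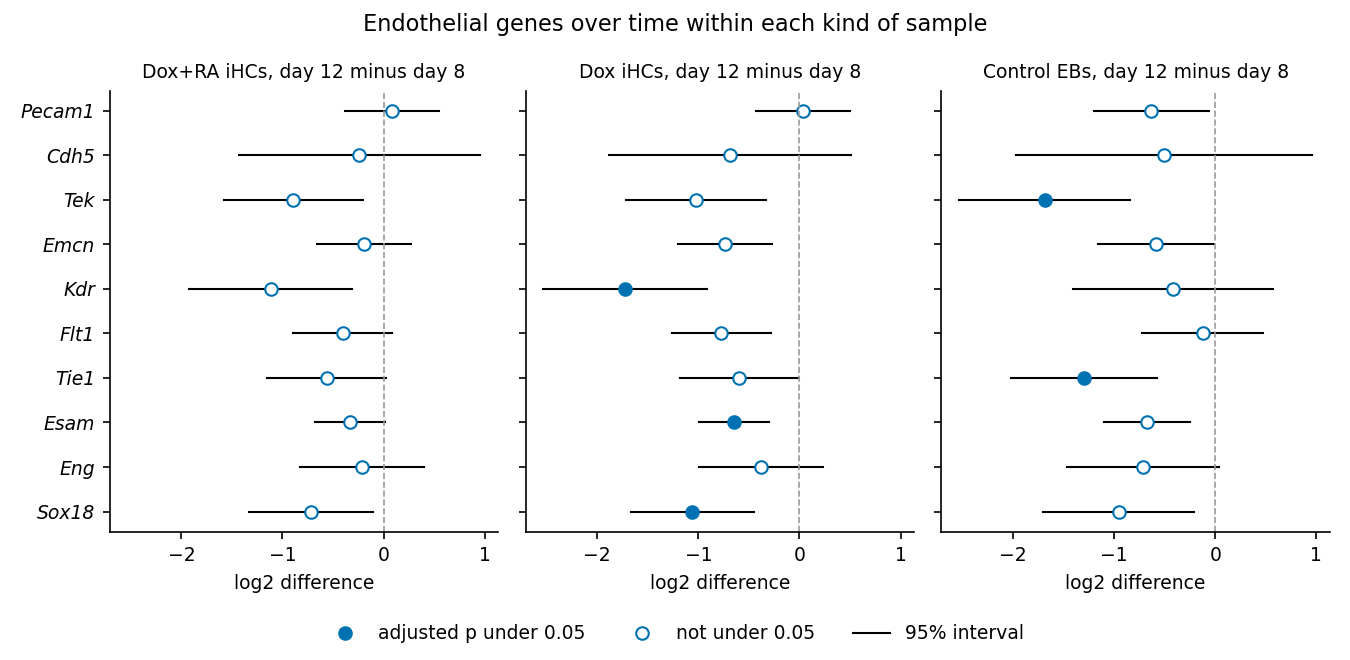
Log2 difference of each gene between day 12 and day 8 (x axis) with its 95% interval, within Dox+RA iHCs, Dox iHCs and control EBs; filled circles passed limma's adjusted p of 0.05. Kdr, Esam and Sox18 are filled in Dox iHCs and Tek and Tie1 in EBs, and 0 genes in Dox+RA iHCs.

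Several of the 10 genes were widely spread between replicate arrays of iHCs. Their median range over the arrays of a group was 1.03 log2 units in Dox+RA iHCs of day 12, 0.55 in Dox iHCs of day 12, 0.69 in Dox+RA iHCs of day 8 and 0.69 in Dox iHCs of day 8, beside medians over all genes of 0.23, 0.26, 0.23 and 0.23. Within Dox+RA iHCs of day 12, 6 of the 10 had a range of at least 1 log2 unit over the 3 arrays, where 1.24% of all genes did. In Dox iHCs of day 12 it was 3 of 10 (2.38% of all genes), in Dox+RA iHCs of day 8 it was 3 (1.21%) and in Dox iHCs of day 8 it was 2 (1.42%). In the control EBs of either day, 0 of the 10 had such a range, and the widest was 0.49. Of all genes, 0.194% had such a range in EBs on day 12 and 0.406% on day 8. Ranges in EBs span 2 arrays against 3 in iHCs, which by itself makes a range narrower. Cdh5 in Dox+RA iHCs of day 12 spanned 2.58 log2 units, a range that 0.0135% of all genes reached there, and Kdr 1.59, which 0.212% reached. At the other end, Emcn in Dox+RA iHCs of day 8 spanned 0.10, and 85.9% of all genes had as wide a range there, while Esam in Dox+RA iHCs of day 12 (40%), Tie1 in Dox iHCs of day 12 (49.5%) and Flt1 (44%) and Pecam1 (43.8%) in Dox iHCs of day 8 were near the middle of all genes.

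Averaged over the 10 genes, the deviation of an array from its group mean was 0.45, 0.25 and -0.70 for replicates 1 to 3 of Dox+RA iHCs of day 12, and -0.05, 0.39 and -0.34 for those of Dox iHCs of day 12. For day 8 it was -0.18, 0.42 and -0.24 in Dox+RA iHCs and -0.03, 0.30 and -0.28 in Dox iHCs, while EB arrays stayed within 0.02. Replicate 2 was above and replicate 3 below the mean of its group in all 4 iHC groups. Replicate 3 was the lowest array for 9 of the 10 genes in both day 12 groups. Over the 12 iHC arrays, the deviations of a gene correlated with the mean deviation of the other 9 at Pearson's r of 0.66 (Esam) to 0.99 (Kdr), a description of arrays that share replicate numbers. Over all genes, too, iHC arrays of the same number deviated together, at r of 0.147 to 0.513. The shares of all genes with such array orders or correlations were not computed.

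The same array of Dox+RA iHCs of day 12, replicate 3, deviated by less in the other lists: by -0.22 on average over 25 other endothelial genes, -0.15 over the hair cell list, -0.11 over the 13 mural cell genes, 0.12 over the pluripotency genes and 0.03 over the red cell genes. Its mean over the hair cell list was 8.89, beside 9.14 and 9.09 in replicates 1 and 2. The part of these shifts in the endothelial deviations was not tested.

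**Figure D4:**
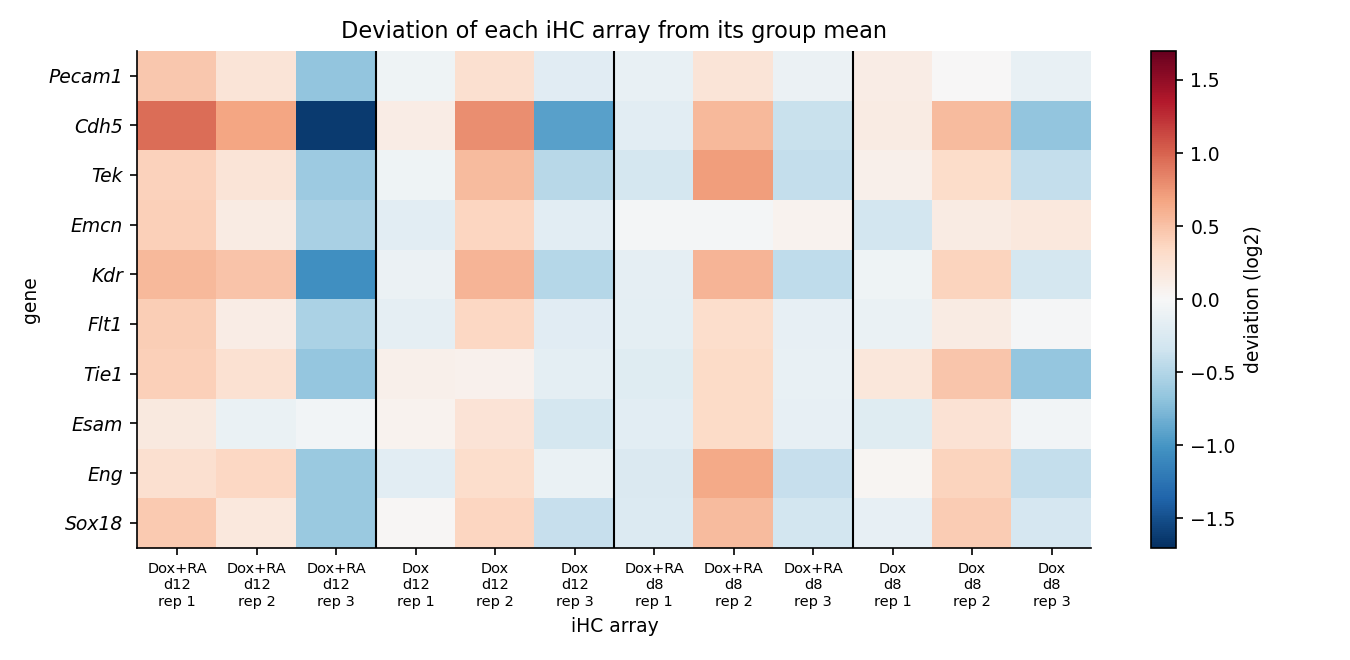
Deviation (log2, colour) of each of the 12 iHC arrays (columns) from the mean of its own group, for the 10 genes (rows). In all 4 groups replicate 2 is above its mean for 9 or 10 genes and replicate 3 for 0 or 1, and the strongest deviation is that of Cdh5 in Dox+RA iHCs of day 12, replicate 3.

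The genes whose levels were most like the mean pattern of the 10 were ranked by Pearson's r, among genes that ranged over at least 1 log2 unit. The 10 genes themselves, predicted genes, small RNA genes and genes with only a clone or accession name were left out of the ranking. Over the 12 iHC arrays, 2992 genes qualified, and the closest were Egfl7 (0.95), Cd93 (0.92), Igf1 (0.92), Fli1 (0.92), Bcl6b (0.90), Ctla2a (0.90), Flt4 (0.89) and Slc43a3 (0.89). Over all 16 arrays, 7038 qualified, with Homer3, Bcl6b, Slc43a3 and Egfl7 (0.98, 0.98, 0.97 and 0.97) followed by S1pr1, Fli1, She and Agps (all 0.96), a measure that takes in the gap between iHCs and EBs. Bcl6b, Slc43a3, Egfl7 and Fli1 were in both rankings. Of the members themselves, Tek followed the mean of the other 9 most closely over the 16 arrays (0.98) and Tie1 least (0.87). Over the iHC arrays it was Sox18 (0.96) and Pecam1 (0.53).

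The wider pathways of these genes were read from lists chosen by role. Their counts against EBs stand beside shares over all genes of 22.4%, 21.7%, 22% and 18.9% lower and 22.4%, 19.2%, 19.6% and 15.7% higher, for Dox+RA iHCs of day 12, Dox iHCs of day 12, Dox+RA iHCs of day 8 and Dox iHCs of day 8. Of 8 VEGF ligands and partner receptors, 2 were higher and 5 lower than in EBs in Dox+RA iHCs of day 12, and 2 higher and 6 lower in the other 3 comparisons. Pgf, placental growth factor, a ligand of Flt1, was higher by 1.64, 1.51, 1.89 and 1.35 in Dox+RA iHCs of day 12, Dox iHCs of day 12, Dox+RA iHCs of day 8 and Dox iHCs of day 8. Vegfa was higher by 1.34 and 1.41 in the day 8 groups. Nrp1, a co-receptor of Kdr that neurons also use, was lower, at -4.28, -3.61, -4.42 and -4.08. Of 4 angiopoietin pathway genes, 3 were lower in every comparison: Angpt1, the Tek agonist that mural cells secrete (-3.49, -2.95, -2.05 and -1.21), Angpt2, a context-dependent ligand of Tek (-0.91, -0.81, -2.10 and -2.04), and Ptprb, the endothelial phosphatase that acts on Tek (-0.79, -1.02, -1.74 and -1.78). All of these passed limma's test with adjusted p of 0.00933 or less.

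Around Eng, the 14 genes of the BMP9 and BMP10 receptor pathway gave 0 higher and 11 lower, 1 higher and 7 lower, 0 higher and 9 lower and 0 higher and 4 lower in the same order of comparisons, beside the 22.4%, 21.7%, 22% and 18.9% of all genes called lower. Smad6, an inhibitory Smad, was lower, at -1.56, -1.29, -1.96 and -1.08. Of 18 endothelial transcription factors, 3, 2, 2 and 3 were higher and 11, 11, 12 and 10 lower. Fli1, an ETS factor of endothelial and blood cells, was at -2.07, -2.29, -2.16 and -2.04, Gata2 at -2.07, -2.30, -1.75 and -1.78, and Foxf1, a factor of lateral mesoderm, at -4.11, -4.17, -4.27 and -3.92. Those that were higher included Nfatc1 on day 12 (2.44 and 2.19), known from endocardial cushions, and Tcf15 in Dox iHCs of day 8 (1.93), known from somites. Of 25 other endothelial surface and signalling genes, 14, 14, 18 and 18 were lower and 0, 1, 1 and 0 higher, with medians of -0.44, -0.48, -0.72 and -0.61. Among them were Stab1, a scavenger receptor (-1.43, -1.44, -1.96 and -1.82), and Adgrl4, an adhesion receptor (-2.88 and -2.79 on day 8).

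Of the pluripotency list, 7, 9, 8 and 8 of 11 genes were lower. Genes of arterial, venous and lymphatic identity were split. Of 13, 3 were higher in each comparison and 7, 7, 7 and 6 lower. Prox1, the lymphatic factor that inner ear sensory cells also express, was higher by 3.13, 3.17, 2.48 and 2.28, and Dll4, the arterial Notch ligand, by 2.19 and 1.79 on day 8. Ephb4, a venous receptor, was at -2.79, -2.67, -2.31 and -1.75.

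**Figure D5:**
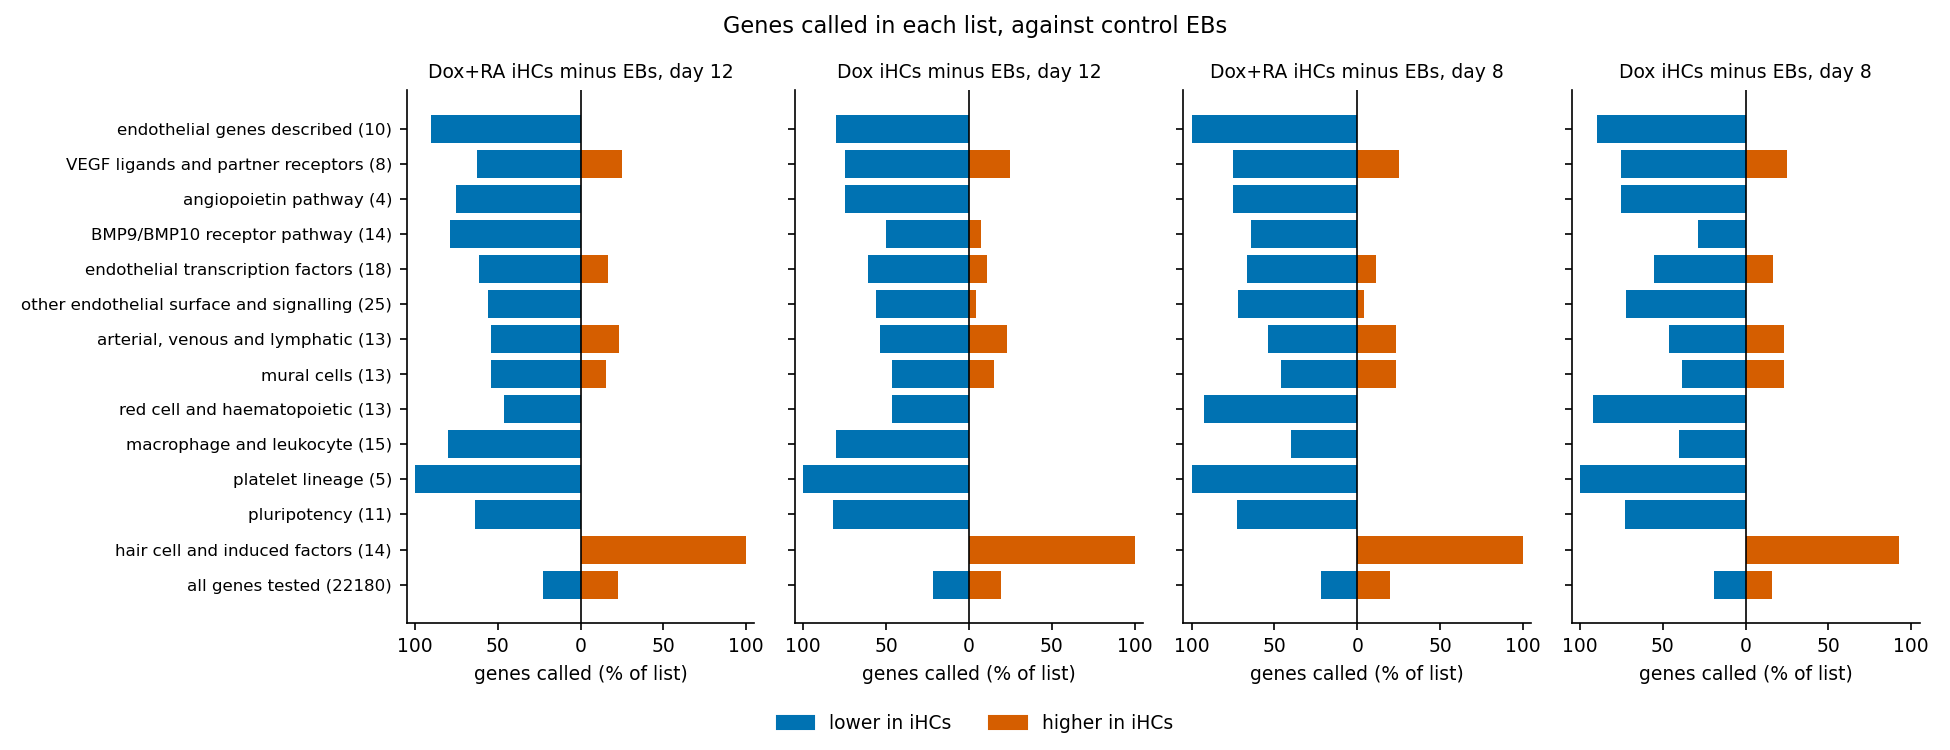
Share of each list called lower (left, blue) or higher (right, orange) in iHCs than in control EBs of the same day, in % of the genes measured (number in brackets), with all genes tested in the bottom bars. In no comparison is a gene of the 10 in orange, and the hair cell list has no blue.

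Lists of neighbouring cell types also differed between iHCs and EBs. The 13 red cell and haematopoietic genes gave 6, 6, 12 and 12 lower and 0 higher in the same order, the 15 macrophage and leukocyte genes 12, 12, 6 and 6 lower, and the 5 platelet genes 5 lower each time. Of 13 mural cell genes, 7, 6, 6 and 5 were lower, beside 22.4%, 21.7%, 22% and 18.9% of all genes, and 2, 2, 3 and 3 were higher, beside 22.4%, 19.2%, 19.6% and 15.7%. The log2 of the summed signal, given for Dox+RA iHCs, then Dox iHCs, then EBs, was for the red cell list 8.85 to 8.98 in Dox+RA iHCs and 8.85 to 9.05 in Dox iHCs of day 12, against 9.85 to 10.02 in EBs, and 9.08 to 9.46 and 9.07 to 9.38 on day 8, against 10.90 to 11.27. The platelet list summed to 7.09 to 7.22 and 6.92 to 7.64 on day 12, against 10.16 to 10.17 in EBs, and to 7.09 to 7.43 and 7.35 to 7.59 on day 8, against 10.09 to 10.14. The macrophage list summed to 8.81 to 9.07 and 8.96 to 9.32 on day 12, against 9.81 to 10.39 in EBs, and to 8.82 to 8.87 and 8.90 to 8.93 on day 8, against 9.36 to 9.47. The mural list summed to 10.07 to 10.34 and 10.27 to 10.64 on day 12, against 11.42 to 11.47 in EBs, and to 10.25 to 10.49 and 10.61 to 10.67 on day 8, against 11.57 to 11.67. All 4 summed levels were below those of the EBs without overlap, on both days. This was not particular to these lists, and a sum is set mostly by the genes with the most signal. The pluripotency list summed to 8.48 to 8.75 and 8.41 to 8.87 on day 12, against 9.78 to 9.90 in EBs. On day 8 its sums were 8.69 to 9.04 and 8.80 to 9.38, against 10.09 to 10.78. For the 10 endothelial genes the sum was 8.12 to 9.44 and 8.40 to 9.18 on day 12, against 10.63 in both EB arrays, and 9.04 to 9.80 and 9.16 to 9.85 on day 8, against 11.29 to 11.35. In EBs, day 12 against day 8, 9 of the 13 red cell genes and 3 of the 5 platelet genes were lower, 5 of the 15 macrophage genes were higher, and 5 of the 25 other endothelial genes were lower, beside 1.42% lower and 2.33% higher over all genes. In Dox+RA iHCs the same comparison of days gave 0 of the 18 endothelial factors and 1 of the 25 other endothelial genes lower, beside 2.61% of all genes, and in Dox iHCs 8 of 18 and 6 of 25, beside 4.66% of all genes. Between Dox+RA and Dox iHCs, 0 of the 25 were called on either day. Of all genes, 0.924% were on day 12 and 4.93% on day 8. On day 12, 2 of the 18 endothelial factors, 1 of 14 BMP9 and BMP10 pathway genes and 1 of 13 mural genes were lower. For day 8 it was 3, 2 and 3, with 3 of the 13 arterial, venous and lymphatic genes (0 on day 12). In these lists 0 genes were higher. Of the 8 VEGF ligands and partner receptors, 1 was lower on day 12, and 1 was higher and 1 lower on day 8. Over all genes, 120 of 22180 were lower and 85 higher on day 12, and 640 were lower and 454 higher on day 8. The part of other cell types in the endothelial differences was not tested.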

How the data were processed

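RNA of 16 samples was hybridised to Affymetrix mouse gene arrays, 1 array per sample. The deposited table holds log2 expression values that the authors made by Robust Multi-array Average (RMA); the submitters' processing notes name Affymetrix Expression Console as the tool. Versions, strips and scan batches were not given in the sources used here. Of 33708 entries, 23521 carried 1 gene symbol, 1814 several and 8373 none. Only entries with 1 symbol were used, the one with the highest mean where a gene had several (1082 genes), which left 22180 genes. Samples were grouped by their titles.

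One limma model (version 3.58.1, R 4.3.3) was fitted over all genes, with a mean for each group and all 16 arrays sharing the spread. P-values were Benjamini-Hochberg adjusted over all genes within each of 9 comparisons and 3 differences of differences. The labels call the arrays biological replicates of 1 line, so p-values measure the spread between such arrays, and their number limits the precision. Signal near background is compressed by RMA and no detection calls were at hand. The fit was tested on simulated data.

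Replicate numbers come from the sample titles. Deviations from group means correlated at 0.147 to 0.513 in all 18 pairs of iHC arrays with the same number, and at -0.415 to 0.201 in 36 pairs with different numbers, so the number pairs the iHC arrays. With EBs the 18 same-number pairs gave 0.0259 to 0.179 and the 34 pairs with different numbers -0.179 to 0.0649. The arrays of an EB group deviate from its mean by equal and opposite amounts. An array's r with an EB array therefore only changes sign with the other EB array of that group. The different-number values with EBs thus largely mirror the same-number values and are no separate evidence of pairing.

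All members are described. Likeness named the 8 genes with the highest Pearson's r among genes ranging over at least 1 log2 unit. Members, predicted genes, microRNAs, other small RNA genes and genes with only a clone or accession name were left out of it. In the pathway lists the genes named were among the 4 called with the largest changes. The members and lists were chosen with earlier results of these data known. Alternatives were a filter on dim genes, a trended robust prior, array weights, subtraction of array medians, a second quantile normalization, the mean of a gene's entries, a test of every entry, the replicate block, a fit of only the groups compared, and leaving out each array in turn.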

Additional observations from a re-analysis of the deposited data

How the results depend on the processing

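No log2 difference of the 10 genes changed sign where it was called, and against EBs the calls of Pecam1, Tek, Emcn, Kdr and Esam held without any single array. Omitting 1 array gave 6 to 9 genes called for Dox+RA iHCs of day 12, 6 to 8 for Dox iHCs of day 12, 8 to 10 for Dox+RA iHCs of day 8 and 6 to 10 for Dox iHCs of day 8. For Dox+RA iHCs over time the count was 0, against 2 with array weights, 3 with the replicate block and 0 to 0 without 1 array. For Dox iHCs over time it was 3, against 5 without dim genes, 5 with array weights, 7 with the block, 1 with only the groups compared and 0 to 6 without 1 array. For EBs over time it was 2, against 1 without dim genes, 1 after quantile normalization, 1 with every entry tested, 5 with the block, 5 with only the groups compared and 0 to 0 without 1 array. For the difference in time change against EBs it was 0, against 1 with the block in Dox iHCs (Kdr, -1.31, adjusted p 0.0429) and 0 to 1 without 1 array in Dox+RA iHCs. EB arrays deviated together with iHC arrays of the same number more weakly than iHC arrays did with each other. In comparisons with EBs, the replicate block called Sox18 in Dox iHCs of day 8 (-0.64, adjusted p 0.0289) and Eng in Dox iHCs of day 12 (-0.54, 0.0261). The block changed no other call of the 10 genes beyond those given here and for the days. With only the groups compared, Tie1 (adjusted p 0.00425) and Eng (0.0136) were called in Dox iHCs of day 12 and Sox18 (0.0197) in Dox iHCs of day 8, while Cdh5 was not in Dox+RA iHCs of day 12 (0.0764; 0.0507 with a trended robust prior). Over all genes, counts moved as follows. RA on day 12 gave 205, against 635 with array weights, 722 with the block, 29 with only the groups compared and 55 to 393 without 1 array. RA on day 8 gave 1094, against 2277 with array weights, 2436 with the block and 333 to 1559 without 1 array. Dox+RA iHCs over time gave 972, against 2299 with array weights, 2010 with the block and 297 to 998 without 1 array. Dox iHCs over time gave 1785, against 3023, 3139 and 420 with weights, block and only the groups compared, and 644 to 2598 without 1 array. EBs over time gave 831, against 393 without dim genes, 1255 with the block, 553 with only the groups compared and 317 to 951 without 1 array. The time difference of Dox+RA iHCs gave 582, against 364, 942 and 1150 (dim filter, weights, block) and 268 to 686 without 1 array, and that of Dox iHCs 630, against 389, 1021, 1430, 415 with only the groups compared and 266 to 1068 without 1 array. The RA difference between days gave 2, against 0, 24 and 15 (dim filter, weights, block), 1 with a trended robust prior, every entry or only the groups compared, and 1 to 15 without 1 array. The dim filter left 11090 genes and removed Sox18; other causes were not tested.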
